A study of Mus musculus with 24 samples.

Results

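The cornified envelope is the protein shell that replaces the membrane of dying epidermal keratinocytes and gives skin its barrier. Its genes were followed here in skin of mice with GVH-SSc, a graft-versus-host disease that resembles systemic sclerosis. Members were all genes whose symbol starts with Sprr or Lce and a digit, together with Ivl, Lor, Flg, Flg2, Rptn, Hrnr and Crct1. The RefSeq table of the mouse genome (build GRCm38.p6) lists 45 such genes, and 30 of them had a probe set of their own among the 18193 genes measured. Where a gene had several probe sets, the one with the highest mean over all arrays stood for it. The 30 members were Sprr1a, Sprr1b and Sprr3, 6 Sprr2 genes, 11 Lce1 genes, 4 Lce3 genes and 6 single genes (Lor, Ivl, Flg, Hrnr, Rptn and Crct1). All of them lie on chromosome 3. The 15 genes without a probe set of their own were Sprr2a1, Sprr2a2, Sprr2a3, Sprr2b, Sprr2c-ps, Sprr2e, Sprr2g, Sprr4, Lce1e, Lce1j, Lce1k, Lce3d, Lce3e, Lce6a and Flg2. The probe sets of 8 members (Lor, Sprr2h, Lce1d, Lce1h, Lce1i, Lce1m, Lce3b and Lce3c) are of a design that may match several related transcripts, so their values may mix genes.

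Lor encodes loricrin, the most abundant protein of the envelope, and Ivl encodes involucrin, a scaffold laid down early in its assembly. The small proline-rich proteins of the Sprr family bridge these components, and the late cornified envelope proteins of the Lce family are added to the envelope late in differentiation. Transglutaminases cross-link them into one insoluble structure. Flg, Hrnr and Rptn encode filaggrin, hornerin and repetin, large repeat-containing proteins of the upper epidermis. Sprr1b and several Sprr2 genes are known to be low in resting epidermis and high in wounded or inflamed epidermis, and in humans the LCE3 genes are known for induction after barrier damage and in psoriasis.

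Samples were dorsal scapular skin, shaved, from female mice. All 6 groups were RAG2-/-, a deletion that stops T and B cell development. The 2 anti-IFNAR1 groups were GVH-SSc mice grafted with B10.D2 splenocytes and given an antibody to IFNAR1, the first subunit of the receptor for type I interferons, with skin taken at day 14 or day 28. The 2 isotype groups were the same kind of graft recipients given an isotype antibody, at day 14 or day 28. The 2 syngeneic groups were RAG2-/- mice given Balb/c splenocytes, at day 14 or day 28, and the titles name no antibody for them. Any effect of the injected isotype antibody and that of the B10.D2 graft cannot be told apart in isotype against syngeneic skin unless those controls were injected too. Each group had 4 arrays. Nothing in the labels says that these came from separate animals, so the spread behind each p-value is that between arrays and may be technical.

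Levels are log2(intensity + 16), on which the lowest value of any gene on any array was 4.18 and the highest 16.5. Differences between groups are log2 differences ± SE from limma, with 4 arrays in each group. P-values were adjusted by Benjamini-Hochberg over all 18193 genes, and a gene with an adjusted p under 0.05 is called higher or lower. Array medians of intensity were 14.8 to 17.7. Krt14, the keratin of basal keratinocytes, lay between 14.03 and 15.68 on all 24 arrays, so epidermis was present in every sample. In whole skin, fewer cells of a type and less RNA per cell cannot be told apart. Isotype replicate 1 at day 14 stood apart by low loricrin and Lce1 values, and isotype replicate 4 at day 14 by Sprr and Lce3 values like those of syngeneic skin. Anti-IFNAR1 replicate 2 at day 28 had a mean hair follicle list of 13.14, against 5.15, 5.30 and 5.91 on the other 3 arrays of its group. The log2 ratio of the 3' to the 5' Gapdh control probe sets, a measure of RNA integrity, ran from 0.62 to 6.27 and was above 4 on 5 arrays (anti-IFNAR1 day 14 replicates 3 and 4, isotype day 28 replicate 1, syngeneic day 14 replicate 4 and syngeneic day 28 replicate 3).

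Promoter sequence from RefSeq (GRCm38.p6) was available for 27 of the 30 members, as a window from 250 bases before to 50 bases after the annotated start. Upstream sequences of 5 members are shown because their levels behaved differently in the results below. Sprr2d, Sprr1b and Lce3f were low in syngeneic skin and high in isotype skin at day 28, Sprr2k was dim in every group with a small rise in isotype skin at day 28, and Lor was high in every group. Each runs 5′ to 3′ on the strand of the gene and ends at the base before the start. Capitals mark AP-1-like letters (TGANTCA, where N is any base), the octamer with the letters ATTTGCAT and the TATA box, searched as TATAAA, each on both strands.
Sprr2d: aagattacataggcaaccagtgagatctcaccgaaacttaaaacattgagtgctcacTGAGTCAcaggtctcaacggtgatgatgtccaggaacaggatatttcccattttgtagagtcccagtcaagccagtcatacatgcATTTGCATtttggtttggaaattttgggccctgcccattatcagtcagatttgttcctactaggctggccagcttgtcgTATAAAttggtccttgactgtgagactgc
Sprr2k: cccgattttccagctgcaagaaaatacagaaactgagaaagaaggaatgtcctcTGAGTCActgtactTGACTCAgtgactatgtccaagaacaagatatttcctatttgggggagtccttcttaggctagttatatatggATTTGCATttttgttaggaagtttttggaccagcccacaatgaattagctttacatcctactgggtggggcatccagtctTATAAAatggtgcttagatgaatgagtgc
Sprr1b: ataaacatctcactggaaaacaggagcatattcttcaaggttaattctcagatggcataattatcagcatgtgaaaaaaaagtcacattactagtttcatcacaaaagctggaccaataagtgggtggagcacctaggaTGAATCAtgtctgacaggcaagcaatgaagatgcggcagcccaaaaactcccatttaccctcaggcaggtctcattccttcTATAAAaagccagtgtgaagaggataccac
Lce3f: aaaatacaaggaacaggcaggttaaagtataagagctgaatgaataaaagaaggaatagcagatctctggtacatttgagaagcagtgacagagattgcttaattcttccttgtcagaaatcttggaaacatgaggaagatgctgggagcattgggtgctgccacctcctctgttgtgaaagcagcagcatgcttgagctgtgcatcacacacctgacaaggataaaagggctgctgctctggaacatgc
Lor: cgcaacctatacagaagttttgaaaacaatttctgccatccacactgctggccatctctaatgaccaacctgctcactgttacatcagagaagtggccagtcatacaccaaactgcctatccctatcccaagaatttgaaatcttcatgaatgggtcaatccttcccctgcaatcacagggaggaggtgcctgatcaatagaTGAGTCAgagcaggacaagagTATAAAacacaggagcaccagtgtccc

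The stretches lie at chr3:92338890-92339139 (Sprr2d, plus strand), chr3:92432332-92432581 (Sprr2k, plus strand), chr3:92438780-92439029 (Sprr1b, minus strand), chr3:92991967-92992216 (Lce3f, plus strand) and chr3:92083143-92083392 (Lor, minus strand). TGANTCA lay 193 bases upstream of the start in Sprr2d, 196 and 182 bases upstream in Sprr2k, 111 bases upstream in Sprr1b and 48 bases upstream in Lor. The octamer lay 108 bases upstream in Sprr2d and 109 bases upstream in Sprr2k. A TATA box lay 27 to 30 bases upstream of the start in these 4 genes. None of the 3 motifs was found in the Lce3f window.

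Over the members, the AP-1 letters TGANTCA were in 11 of 27 windows, against 7.81% of all 32851 promoters. The 11 were all 5 Sprr2 genes with a window, Sprr1a, Sprr1b, Lor, Ivl, Flg and Rptn. They were in 0 of 10 Lce1 and 0 of 4 Lce3 windows. ATTTGCAT was in 5 of 27 windows, all of them Sprr2 genes, against 1.74% of all promoters. TATAAA was in 15 of 27 windows and in 13.6% of all promoters. The interferon response element (GAAA, any 2 bases, GAAA) was in 0 of 27 windows and in 3.44% of all promoters, and the STAT element (TTC, any 3 bases, GAA) was in 2 windows (Sprr2i and Lce1l) and in 8.3% of all promoters. The Sprr2 genes share sequence, so their matches are not independent of each other. These matches describe letters in short windows and do not show binding.

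In isotype skin at day 28, the Sprr2 and Lce3 genes, Sprr1b and Rptn were far above their levels in syngeneic skin, while loricrin, Crct1 and 6 of the 11 Lce1 genes did not pass the test. With the antibody against IFNAR1, the same Sprr2 and Lce3 genes, Sprr1b and Rptn lay far below isotype skin, and none of them was called against syngeneic skin. Of the 30 members, 20 were higher in isotype than in syngeneic skin (6.66% of all genes were) and 0 were lower (9.69% of all genes were; limma, 24 members had an unadjusted p under 0.05 in either direction). The median difference was 1.81 over the members and -0.001 over all genes. Between anti-IFNAR1 and isotype skin at day 28, 17 members were lower (4.89% of all genes were) and 0 were higher (8.42% of all genes were; limma, 22 members had an unadjusted p under 0.05), with a median difference of -1.49. These 17 were all among the 20 that were higher in isotype skin. Both comparisons use the same 4 isotype arrays, so they are given side by side and are not independent of each other.

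All 6 Sprr2 genes were higher in isotype than in syngeneic skin at day 28 and all 6 were lower with the antibody. Sprr2d measured 5.01, 5.29, 4.85 and 4.80 in anti-IFNAR1 skin, 13.72, 11.39, 11.71 and 13.45 in isotype skin and 4.81, 4.36, 5.52 and 4.60 in syngeneic skin. In deposited intensity units the isotype arrays ran from 2666 to 13483, and no array of the other 2 groups exceeded 30. Its difference was 7.75 ± 1.04, adjusted p = 7.5e-05 for isotype minus syngeneic and -7.58 ± 1.04, adjusted p = 0.00018 for anti-IFNAR1 minus isotype. The isotype arrays did not overlap with either other group, and replicates 1 and 4 were the highest of them. Sprr2h measured 6.16, 8.58, 6.29 and 5.99 in anti-IFNAR1 skin, 13.73, 11.82, 12.28 and 13.83 in isotype skin and 6.38, 5.26, 8.45 and 6.30 in syngeneic skin. Its difference was 6.32 ± 1.19, adjusted p = 0.0011 for isotype minus syngeneic and -6.16 ± 1.19, adjusted p = 0.0021 for anti-IFNAR1 minus isotype. Its probe set is one of those that may mix Sprr2 genes. Replicate 2 of the anti-IFNAR1 group and replicate 3 of the syngeneic group lay above the rest of their groups for Sprr2h, though below every isotype array.

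Sprr2f measured 4.70, 6.03, 4.67 and 5.10 in anti-IFNAR1 skin, 13.11, 10.11, 11.99 and 13.63 in isotype skin and 6.43, 4.72, 5.92 and 4.72 in syngeneic skin. Its difference was 6.76 ± 1.09, adjusted p = 0.00033 for isotype minus syngeneic and -7.08 ± 1.09, adjusted p = 0.00042 for anti-IFNAR1 minus isotype. Again the isotype arrays stood clear of both other groups. Sprr2k had a different profile, with a small difference and little spread. It measured 4.74, 4.71, 4.76 and 4.76 in anti-IFNAR1 skin, 6.54, 6.50, 6.44 and 6.86 in isotype skin and 4.75, 4.74, 4.63 and 4.55 in syngeneic skin. Its differences were 1.92 ± 0.08, adjusted p = 4.5e-11 for isotype minus syngeneic and -1.85 ± 0.08, adjusted p = 9.1e-11 for anti-IFNAR1 minus isotype, the smallest SE of any Sprr2 gene. Sprr2k was near the lowest value on the array in every group except isotype day 28, and the offset of 16 shrinks log2 differences of so dim a probe set. Sprr2i and the transcribed pseudogene Sprr2j-ps were also close to that lowest value in anti-IFNAR1 and syngeneic skin. Sprr2i lay between 4.35 and 4.45 in anti-IFNAR1 skin, between 6.63 and 9.75 in isotype skin and between 4.35 and 4.43 in syngeneic skin.

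Another 3 probe sets could not be given to 1 gene, because each matches Sprr2a1 and Sprr2a2, and one of them also Sprr2a3. They are not among the 30 members and were not tested. The one that also matches Sprr2a3 measured 10.83, 10.98, 9.40 and 10.77 in anti-IFNAR1 skin, 15.13, 14.78, 14.66 and 14.86 in isotype skin and 9.73, 7.20, 8.47 and 7.85 in syngeneic skin at day 28. The other 2 had day 28 means of 5.78 and 9.54 in anti-IFNAR1 skin, 9.56 and 14.71 in isotype skin and 5.52 and 7.06 in syngeneic skin. On all 3, each isotype array lay above each array of the other day 28 groups. The means in anti-IFNAR1 skin were also above those in syngeneic skin, most of all for the pair of 10.50 against 8.31 and the pair of 9.54 against 7.06, with overlap between the arrays of both groups.

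Among the other Sprr genes, Sprr1b was higher and Sprr3 stayed near the lowest value on the array. Sprr1b measured 6.77, 9.29, 6.56 and 7.51 in anti-IFNAR1 skin, 15.18, 14.03, 14.09 and 15.37 in isotype skin and 7.19, 4.78, 7.28 and 5.80 in syngeneic skin at day 28. In intensity units the anti-IFNAR1 arrays ran from 78 to 611, the isotype arrays from 16696 to 42314 and the syngeneic arrays from 11 to 140. Its difference was 8.41 ± 1.36, adjusted p = 0.00033 for isotype minus syngeneic and -7.14 ± 1.36, adjusted p = 0.0019 for anti-IFNAR1 minus isotype. The order of the largest differences depended on the offset, since syngeneic arrays were near the floor. With an offset of 1 isotype minus syngeneic was 9.16, adjusted p = 0.00068 for Lce3f, 8.99, adjusted p = 0.00013 for Sprr2d and 8.88, adjusted p = 0.00033 for Sprr1b. Sprr1a, which encodes a close relative, was already bright in syngeneic skin. It measured 10.77, 14.43, 11.66 and 12.06 in anti-IFNAR1 skin, 14.40, 13.91, 13.94 and 14.91 in isotype skin and 10.67, 10.59, 13.34 and 13.17 in syngeneic skin. Sprr1a was higher in isotype than in syngeneic skin (2.35 ± 0.71, adjusted p = 0.027), while anti-IFNAR1 minus isotype gave -2.06 ± 0.71, adjusted p = 0.061 and did not pass the test. Anti-IFNAR1 replicate 2 overlapped with the isotype arrays. Without it, the difference for Sprr1a was -2.79, adjusted p = 0.0059 and passed the test. The call for Sprr1a in isotype against syngeneic skin was lost without isotype replicate 1 (2.31, adjusted p = 0.06), isotype replicate 4 (2.14, adjusted p = 0.085), syngeneic replicate 1 (1.93, adjusted p = 0.1) or syngeneic replicate 2 (1.90, adjusted p = 0.1). Sprr3, which is known from internal stratified epithelia, lay between 4.38 and 4.41 on all 12 arrays of day 28.

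All 4 Lce3 genes were higher in isotype than in syngeneic skin at day 28, and all 4 were lower with the antibody. Lce3f measured 6.05, 6.98, 5.47 and 7.01 in anti-IFNAR1 skin, 14.68, 12.90, 12.53 and 14.40 in isotype skin and 6.37, 4.37, 6.31 and 4.64 in syngeneic skin. Its difference was 8.21 ± 1.35, adjusted p = 0.0004 for isotype minus syngeneic and -7.25 ± 1.35, adjusted p = 0.0017 for anti-IFNAR1 minus isotype. Lce3c measured 5.81, 6.18, 5.30 and 5.50 in anti-IFNAR1 skin, 12.85, 11.42, 11.01 and 12.91 in isotype skin and 5.67, 4.99, 5.96 and 5.69 in syngeneic skin. Its difference was 6.47 ± 0.87, adjusted p = 7.5e-05 for isotype minus syngeneic and -6.35 ± 0.87, adjusted p = 0.00018 for anti-IFNAR1 minus isotype. For both genes the isotype arrays were clear of the other groups, with replicates 1 and 4 highest, as for Sprr2d. Lce3a lay between 4.32 and 4.89 in anti-IFNAR1 skin, between 9.79 and 13.05 in isotype skin and between 4.39 and 4.57 in syngeneic skin. Lce3b lay between 5.45 and 6.14 in anti-IFNAR1 skin, between 8.22 and 10.80 in isotype skin and between 4.98 and 5.59 in syngeneic skin.

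**Figure D1:**
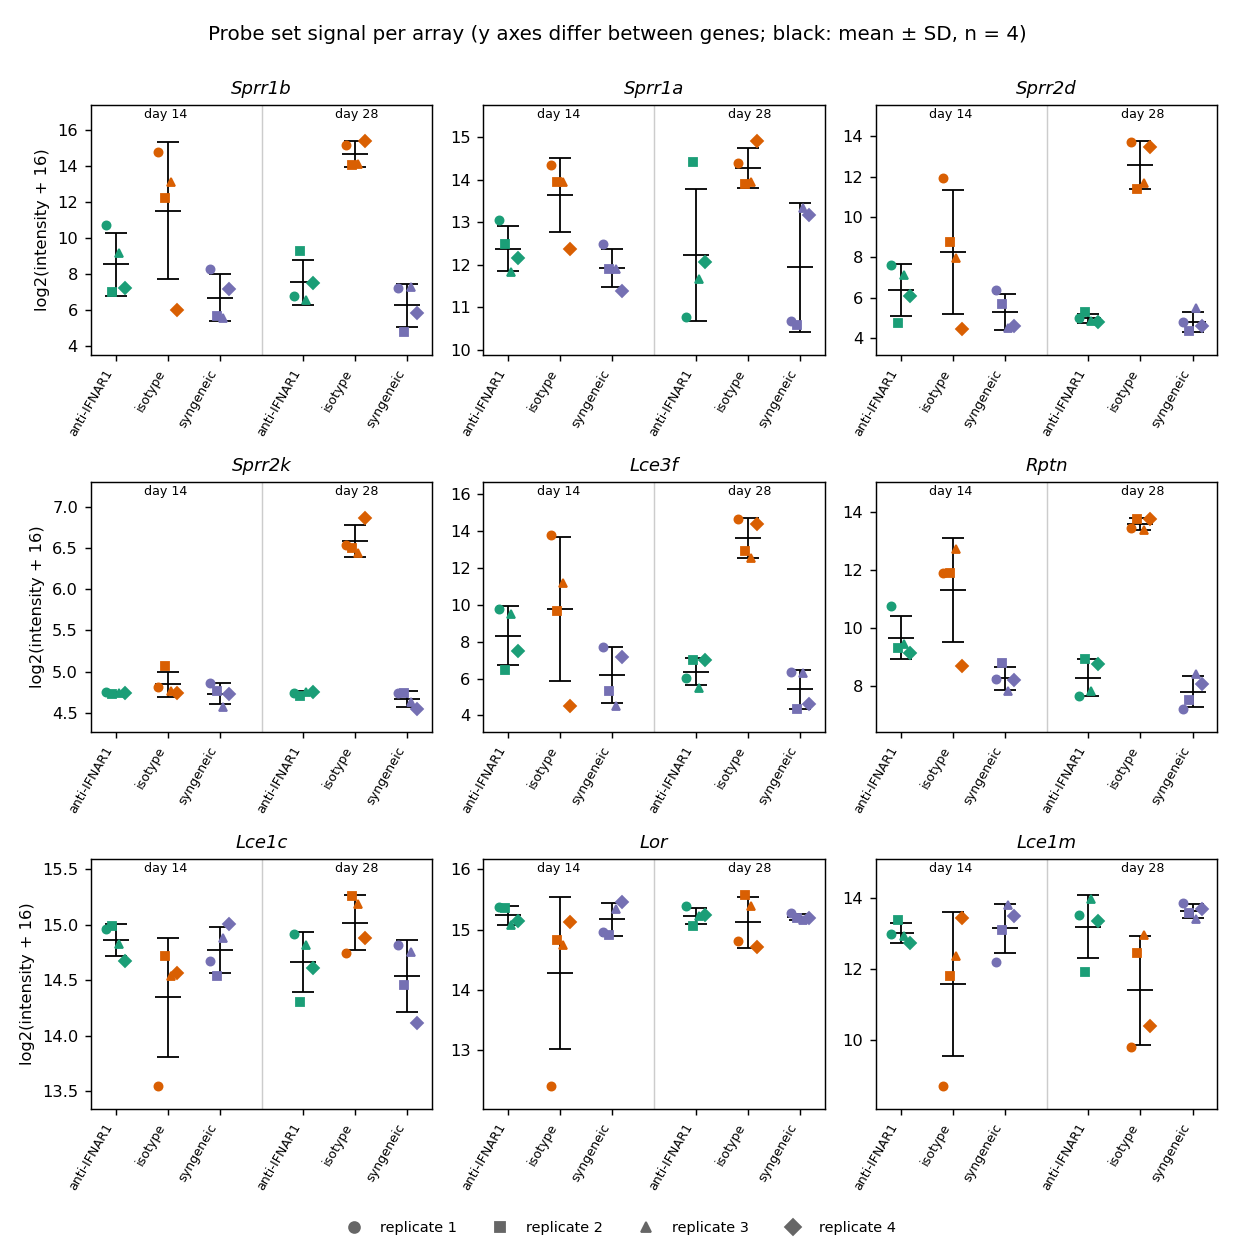
Level of 9 members on each array, as log2(intensity + 16) on the y axis, for the anti-IFNAR1, isotype and syngeneic groups at day 14 and day 28, with each replicate number its own symbol and black marks for the mean ± SD of 4 arrays. Isotype arrays at day 28 stand above all other day 28 arrays for Sprr1b, Sprr2d, Sprr2k, Lce3f and Rptn, and Lor and Lce1c are near 15 in most samples.

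The Lce1 genes were mixed. Of the 11, 5 were higher in isotype than in syngeneic skin at day 28 and 0 were lower, and 4 were lower in anti-IFNAR1 than in isotype skin. The 5 were Lce1h (2.46 ± 0.33, adjusted p = 6.4e-05), Lce1f (1.69 ± 0.22, adjusted p = 4.8e-05), Lce1i (1.36 ± 0.23, adjusted p = 0.00046), Lce1g (1.25 ± 0.10, adjusted p = 7.8e-07) and Lce1d (0.81 ± 0.23, adjusted p = 0.022), and Lce1d was the one not called lower with the antibody (-0.64 ± 0.23, adjusted p = 0.077). The call for Lce1d was lost without isotype replicate 2 or 3 or without syngeneic replicate 2 or 4, with adjusted p up to 0.12 over all settings. Lce1g was near the lowest value on the array in anti-IFNAR1 skin (between 4.44 and 4.47) and syngeneic skin (between 4.44 and 4.46) and lay between 5.42 and 6.09 in isotype skin. Lce1f lay between 13.36 and 13.71 in anti-IFNAR1 skin, between 14.70 and 14.88 in isotype skin and between 12.47 and 13.42 in syngeneic skin.

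The Lce1 members with the brightest probe sets showed small differences. Lce1c measured 14.92, 14.31, 14.82 and 14.61 in anti-IFNAR1 skin, 14.75, 15.26, 15.19 and 14.88 in isotype skin and 14.82, 14.46, 14.76 and 14.11 in syngeneic skin at day 28. Its difference was 0.48 ± 0.22, adjusted p = 0.16 for isotype minus syngeneic and -0.36 ± 0.22, adjusted p = 0.35 for anti-IFNAR1 minus isotype, and neither passed the test. Lce1a1 measured 14.69, 13.95, 14.37 and 14.24 in anti-IFNAR1 skin, 14.77, 15.11, 14.94 and 14.60 in isotype skin and 14.46, 14.08, 14.58 and 13.83 in syngeneic skin. Its difference was 0.62 ± 0.24, adjusted p = 0.087 for isotype minus syngeneic, with no overlap between the groups, and -0.54 ± 0.24, adjusted p = 0.15 for anti-IFNAR1 minus isotype. Lce1m, described here after its values were seen, ran the other way. It measured 13.53, 11.93, 13.98 and 13.37 in anti-IFNAR1 skin, 9.81, 12.47, 12.96 and 10.40 in isotype skin and 13.88, 13.59, 13.41 and 13.70 in syngeneic skin. All 4 isotype arrays lay below all 4 syngeneic arrays, with replicates 1 and 4 lowest, but the difference of -2.24 ± 0.80, adjusted p = 0.063 did not pass the test. Lce1m was the one member below syngeneic skin without overlap (12.2% of all genes were), while 21 members were above without overlap (8.09% of all genes were). Anti-IFNAR1 arrays lay below isotype arrays without overlap for 18 members (6.85% of all genes did).

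Of the 6 single genes, Rptn, Ivl and Flg were higher in isotype than in syngeneic skin at day 28. Rptn, which encodes repetin, measured 7.67, 8.93, 7.83 and 8.74 in anti-IFNAR1 skin, 13.44, 13.75, 13.37 and 13.77 in isotype skin and 7.21, 7.51, 8.42 and 8.09 in syngeneic skin. Its difference was 5.78 ± 0.61, adjusted p = 9.9e-06 for isotype minus syngeneic and -5.29 ± 0.61, adjusted p = 4.8e-05 for anti-IFNAR1 minus isotype. The isotype arrays of Rptn lay close together and far above both other groups. Its 2 other probe sets lay between 4.34 and 4.36 and so the result rests on 1 probe set, and the mean of the 3 gave 1.93, adjusted p = 8.9e-06 for isotype minus syngeneic. Ivl lay between 11.39 and 12.10 in anti-IFNAR1 skin, between 12.59 and 13.58 in isotype skin and between 11.23 and 12.20 in syngeneic skin. Its difference was 1.38 ± 0.23, adjusted p = 0.00043 for isotype minus syngeneic and -1.30 ± 0.23, adjusted p = 0.0011 for anti-IFNAR1 minus isotype. Flg lay between 9.54 and 12.14 in anti-IFNAR1 skin, between 11.38 and 13.46 in isotype skin and between 9.78 and 11.10 in syngeneic skin. It was called higher in isotype skin (2.08 ± 0.63, adjusted p = 0.028), and anti-IFNAR1 minus isotype did not pass the test (-1.64 ± 0.63, adjusted p = 0.096). The call for Flg in isotype skin was lost without isotype replicate 2, 3 or 4 or without syngeneic replicate 1 or 2, with adjusted p up to 0.087. Without anti-IFNAR1 replicate 2 the antibody difference passed (-2.03, adjusted p = 0.042).

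Loricrin, Crct1 and hornerin did not pass the test. Lor measured 15.38, 15.05, 15.22 and 15.23 in anti-IFNAR1 skin, 14.80, 15.57, 15.39 and 14.71 in isotype skin and 15.28, 15.19, 15.16 and 15.19 in syngeneic skin at day 28, with -0.09 ± 0.39, adjusted p = 1 for isotype minus syngeneic. Crct1, a cysteine-rich gene of the same cluster, measured 13.79, 14.02, 13.88 and 13.79 in anti-IFNAR1 skin, 13.83, 14.38, 14.17 and 14.09 in isotype skin and 13.82, 13.78, 13.93 and 14.01 in syngeneic skin, with 0.23 ± 0.20, adjusted p = 0.56. For Lor the syngeneic arrays lay close together, while isotype replicates 1 and 4 were lower and replicates 2 and 3 higher than all of them. Hrnr lay between 10.08 and 11.20 in anti-IFNAR1 skin, between 9.91 and 13.51 in isotype skin and between 9.96 and 10.83 in syngeneic skin. Its difference was 1.66 ± 0.75, adjusted p = 0.16 for isotype minus syngeneic, and without isotype replicate 1, its lowest array, it passed the test (2.41, adjusted p = 0.025). The median differences for isotype minus syngeneic were 5.05 over the Sprr2 genes, 6.55 over the Lce3 genes, 0.62 over the Lce1 genes and 1.52 over the 6 single genes.

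Within isotype skin at day 28 the members did not vary together. Replicates 1 and 4 had Lce3 list means of 12.84 and 12.30, against 10.58 and 10.46 for replicates 2 and 3, and Sprr2 list means of 10.81 and 10.81, against 8.67 and 9.49. Replicates 1 and 4 also had the 2 lowest isotype values of Lce1m and of Lor. The log2 Gapdh ratio was 4.57 on replicate 1 and 2.69 on replicate 4, against 1.69 on replicate 2 and 1.07 on replicate 3. The part of RNA integrity in this pattern was not tested. Without the 5 arrays of a ratio above 4, 21 members were higher in isotype than in syngeneic skin at day 28. In the same fit 18 were lower in anti-IFNAR1 than in isotype skin. The share of all genes called in that fit is not given here.

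**Figure D2:**
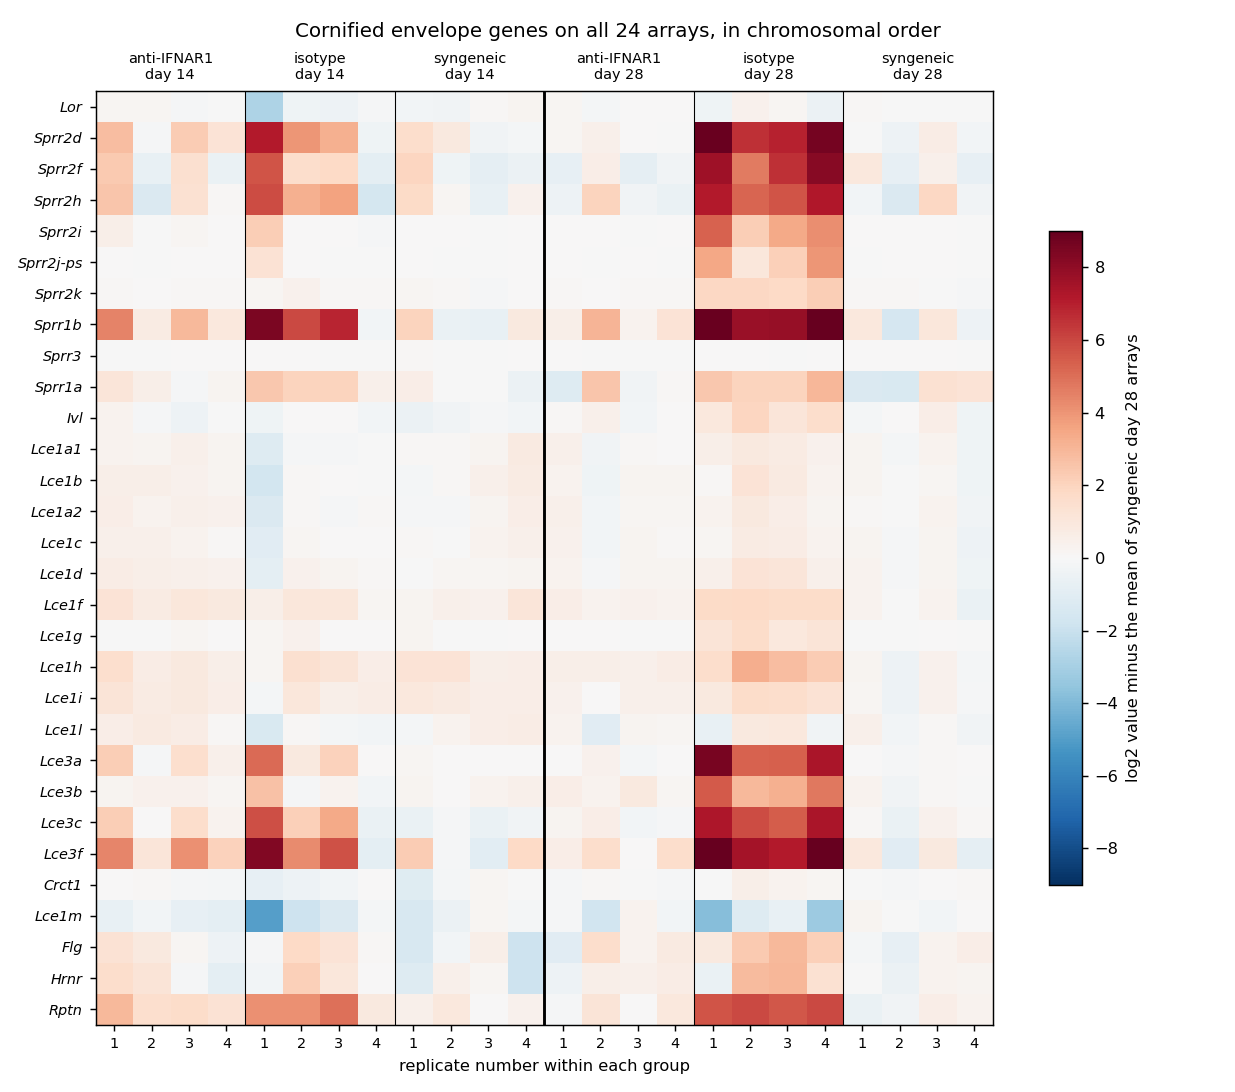
Level of the 30 members (rows, in chromosomal order) on the 24 arrays (columns, by group and replicate), as the log2 value minus the mean of the syngeneic day 28 arrays, red above and blue below. The Sprr2 and Lce3 blocks, Sprr1b and Rptn are red on the 4 isotype arrays of day 28, and Sprr1b, Sprr2h, Lce3f and Rptn are also red on isotype replicates 1, 2 and 3 of day 14, while Lce1m is blue on isotype replicate 1 of day 14 and on isotype replicates 1 and 4 of day 28.

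Set directly against syngeneic skin at day 28, anti-IFNAR1 skin had 0 members called in either direction (0.033% of all genes were; limma, 0 members had an unadjusted p under 0.05, and 370 of all genes did). The median difference over the members was 0.13, with 25 members above and 5 below 0. Sprr1b differed by 1.27 ± 1.36, adjusted p = 1, Lce3f by 0.96 ± 1.35, adjusted p = 1, Sprr2d by 0.17 ± 1.04, adjusted p = 1 and Sprr2k by 0.07 ± 0.08, adjusted p = 1. The SEs of Sprr1b, Lce3f and Sprr2d are wide, so these values do not show equal levels. Lce1h was above syngeneic skin without overlap (0.55 ± 0.33, adjusted p = 1), as were 1.34% of all genes. At day 28, 15 members had a mean above 10 in anti-IFNAR1 skin, 23 in isotype skin and 14 in syngeneic skin.

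At day 14 the picture in isotype skin was uneven between arrays. Of the 30 members, 3 (Sprr1b, Lce3c and Rptn) were higher in isotype than in syngeneic skin (5.29% of all genes were) and 0 were lower (8.3% of all genes were; limma, 10 members had an unadjusted p under 0.05 in either direction). Between anti-IFNAR1 and isotype skin at day 14, 0 members were called (0.813% of all genes were; limma, 9 members had an unadjusted p under 0.05, and 3075 of all genes did). Anti-IFNAR1 minus syngeneic at day 14 also gave 0 called members (1.12% of all genes were; limma, 1 member had an unadjusted p under 0.05), and Lce1d, Lce3c and Rptn were above syngeneic skin without overlap (1.62% of all genes were).

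Sprr1b measured 10.72, 6.97, 9.18 and 7.23 in anti-IFNAR1 skin, 14.75, 12.22, 13.11 and 6.01 in isotype skin and 8.30, 5.68, 5.56 and 7.14 in syngeneic skin at day 14. Its difference was 4.86 ± 1.36, adjusted p = 0.023 for isotype minus syngeneic and -2.997 ± 1.36, adjusted p = 0.27 for anti-IFNAR1 minus isotype. Isotype replicates 1, 2 and 3 were above all other day 14 arrays, and replicate 4 was within the syngeneic range. Rptn measured 10.75, 9.32, 9.45 and 9.14 in anti-IFNAR1 skin, 11.91, 11.88, 12.74 and 8.70 in isotype skin and 8.24, 8.78, 7.82 and 8.23 in syngeneic skin, with 3.04 ± 0.61, adjusted p = 0.0039 for isotype minus syngeneic. Lce3c measured 7.80, 5.63, 7.15 and 5.89 in anti-IFNAR1 skin, 11.35, 7.69, 8.97 and 4.98 in isotype skin and 4.998, 5.48, 4.95 and 5.29 in syngeneic skin, with 3.07 ± 0.87, adjusted p = 0.025. Replicate 4 was the lowest isotype array for both genes. Lce3f, which did not pass the test, measured 9.79, 6.48, 9.51 and 7.50 in anti-IFNAR1 skin, 13.78, 9.66, 11.16 and 4.53 in isotype skin and 7.69, 5.35, 4.49 and 7.19 in syngeneic skin, with 3.60 ± 1.35, adjusted p = 0.085.

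Among the Sprr2 genes at day 14, Sprr2d measured 7.63, 4.73, 7.12 and 6.08 in anti-IFNAR1 skin, 11.94, 8.77, 7.99 and 4.46 in isotype skin and 6.40, 5.70, 4.52 and 4.63 in syngeneic skin. Its difference for isotype minus syngeneic was 2.98 ± 1.04, adjusted p = 0.065. Sprr2h measured 9.06, 5.31, 7.94 and 6.70 in anti-IFNAR1 skin, 12.45, 9.76, 10.25 and 5.05 in isotype skin and 8.34, 6.75, 5.90 and 6.99 in syngeneic skin, with 2.38 ± 1.19, adjusted p = 0.21. Both genes had their highest value on isotype replicate 1 and a low one on replicate 4. Sprr2f measured 7.79, 4.79, 6.86 and 4.88 in anti-IFNAR1 skin, 11.10, 7.003, 7.23 and 4.54 in isotype skin and 7.38, 5.10, 4.68 and 4.89 in syngeneic skin, with 1.96 ± 1.09, adjusted p = 0.27. Sprr2k measured 4.76, 4.73, 4.74 and 4.74 in anti-IFNAR1 skin, 4.82, 5.06, 4.76 and 4.74 in isotype skin and 4.87, 4.77, 4.57 and 4.73 in syngeneic skin, with 0.11 ± 0.08, adjusted p = 0.42. Sprr2k stayed near the lowest value on the array in all 3 groups. Sprr2i and Sprr2j-ps were also close to that value at day 14, apart from isotype replicate 1, at 6.61 and 5.82. Sprr1a measured 13.05, 12.48, 11.82 and 12.16 in anti-IFNAR1 skin, 14.34, 13.94, 13.96 and 12.37 in isotype skin and 12.50, 11.91, 11.90 and 11.39 in syngeneic skin, with 1.73 ± 0.71, adjusted p = 0.11.

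Loricrin and the bright Lce1 genes had their lowest day 14 values in isotype skin. Lor measured 15.38, 15.37, 15.07 and 15.14 in anti-IFNAR1 skin, 12.40, 14.83, 14.75 and 15.13 in isotype skin and 14.96, 14.91, 15.35 and 15.46 in syngeneic skin, with -0.89 ± 0.39, adjusted p = 0.14 for isotype minus syngeneic. Lce1a1 measured 14.58, 14.46, 14.73 and 14.48 in anti-IFNAR1 skin, 13.04, 14.15, 14.15 and 14.22 in isotype skin and 14.37, 14.35, 14.46 and 15.05 in syngeneic skin, with -0.67 ± 0.24, adjusted p = 0.07. Isotype replicate 1 was the lowest array of day 14 for both, and without it the difference was -0.27, adjusted p = 0.41 for Lor and -0.38, adjusted p = 0.25 for Lce1a1. Lce1a1 was the one member below syngeneic skin without overlap (8.14% of all genes were). Lce1c measured 14.97, 14.99, 14.83 and 14.68 in anti-IFNAR1 skin, 13.55, 14.72, 14.54 and 14.57 in isotype skin and 14.67, 14.54, 14.88 and 15.003 in syngeneic skin. Crct1 measured 13.90, 13.99, 13.75 and 13.72 in anti-IFNAR1 skin, 13.15, 13.43, 13.66 and 13.92 in isotype skin and 12.81, 13.71, 14.03 and 13.88 in syngeneic skin, and Lce1m 12.99, 13.40, 12.93 and 12.74 in anti-IFNAR1 skin, 8.71, 11.80, 12.36 and 13.45 in isotype skin and 12.21, 13.12, 13.80 and 13.50 in syngeneic skin. Anti-IFNAR1 arrays lay above isotype arrays without overlap at day 14 for Lce1a1, Lce1a2, Lce1b and Lce1d (4.56% of all genes did), and none of these 4 passed the test.

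The day 14 counts rested on single arrays. Leaving out an array may also change how many of all genes are called, and that share is not given here. The counts below therefore show only how the calls of members moved. Without isotype replicate 4, 7 members were higher in isotype than in syngeneic skin (Lce3a, Lce3c, Lce3f, Rptn, Sprr1b, Sprr2d and Sprr2h), with 6.70, adjusted p = 0.00031 for Sprr1b, and 2 were lower (Lor and Lce1a1). Also without it, 5 members were lower in anti-IFNAR1 than in isotype skin, with -4.84, adjusted p = 0.013 for Sprr1b. Without isotype replicate 1, isotype replicate 3 or syngeneic replicate 3, Rptn was the 1 member still called in isotype against syngeneic skin. Sprr1b was also lost without isotype replicate 2, with 4.62, adjusted p = 0.067, and Lce3c without syngeneic replicate 4, with 3.11, adjusted p = 0.058. Isotype replicate 4 also had a wound keratin list mean of 10.37, against 14.97, 14.84 and 14.85 on the other isotype arrays, which is close to the syngeneic range of 9.18 to 11.86. Other lists were mixed on this array. Its T cell mean of 7.37 was nearer to the other isotype arrays (7.31 to 7.86) than to syngeneic arrays (4.70 to 5.32). Its type I interferon mean of 9.46 lay between the other isotype arrays (9.57 to 10.55) and syngeneic arrays (7.37 to 8.74). Its cytokine list mean of 5.55 was within the syngeneic range (5.06 to 5.95), below the other isotype arrays (6.73 to 7.52). Its S100 mean of 9.93 was also within the syngeneic range (9.68 to 10.14), below the other isotype arrays (10.58 to 11.04). Its adipocyte mean of 11.78 was above the other isotype arrays (10.54 to 10.70) and syngeneic arrays (10.88 to 11.70).

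Between day 14 and day 28, 13 members were higher at day 28 in isotype skin (1.15% of all genes were) and 0 were lower (1.05% of all genes were; limma, 25 members had an unadjusted p under 0.05 in either direction). Among them Sprr2f differed by 4.74 ± 1.09, adjusted p = 0.028, Lce3a by 4.61 ± 0.83, adjusted p = 0.0082, Sprr2d by 4.28 ± 1.04, adjusted p = 0.038 and Sprr2k by 1.74 ± 0.08, adjusted p = 2.6e-10. Sprr1b, at 3.14 ± 1.36, adjusted p = 0.28, did not pass. Of its 4 isotype arrays, 3 were already above 12 at day 14. In anti-IFNAR1 skin 0 members were called between days (0.555% of all genes were; limma, 3 members had an unadjusted p under 0.05), and in syngeneic skin also 0 (0.077% of all genes were; limma, 3 members had an unadjusted p under 0.05). Of the 13, 1 was called when the fit held only the arrays compared, and 6 members were called without the arrays of a Gapdh ratio above 4.

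Whether the group differences themselves changed between days was tested as an interaction. For isotype minus syngeneic, day 28 minus day 14, 2 members passed, Sprr2k at 1.81 ± 0.12, adjusted p = 6.2e-08 and Lce1g at 1.16 ± 0.14, adjusted p = 0.0014 (0.0385% of all genes were higher). For anti-IFNAR1 minus isotype, day 28 minus day 14, the same 2 passed, Sprr2k at -1.74 ± 0.12, adjusted p = 1.2e-07 and Lce1g at -1.14 ± 0.14, adjusted p = 0.0021 (0.033% of all genes were lower). Both genes were near the lowest value on the array in 5 of the 6 groups. Their SEs were the smallest of the members apart from Sprr3. In limma, 21 members had an unadjusted p under 0.05 in the first interaction, as did 1775 of all genes. In the second, 23 members and 2468 of all genes did. The estimate was above 0 for 29 members in the first interaction and below 0 for 29 in the second. Larger interaction estimates did not pass, such as 4.77 ± 1.48, adjusted p = 0.27 for Sprr2d and 2.51 ± 0.46, adjusted p = 0.056 for Lce1h in isotype minus syngeneic. The interaction for Lce1g was lost without the arrays of a Gapdh ratio above 4, and that of Sprr2k was kept.

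**Figure D3:**
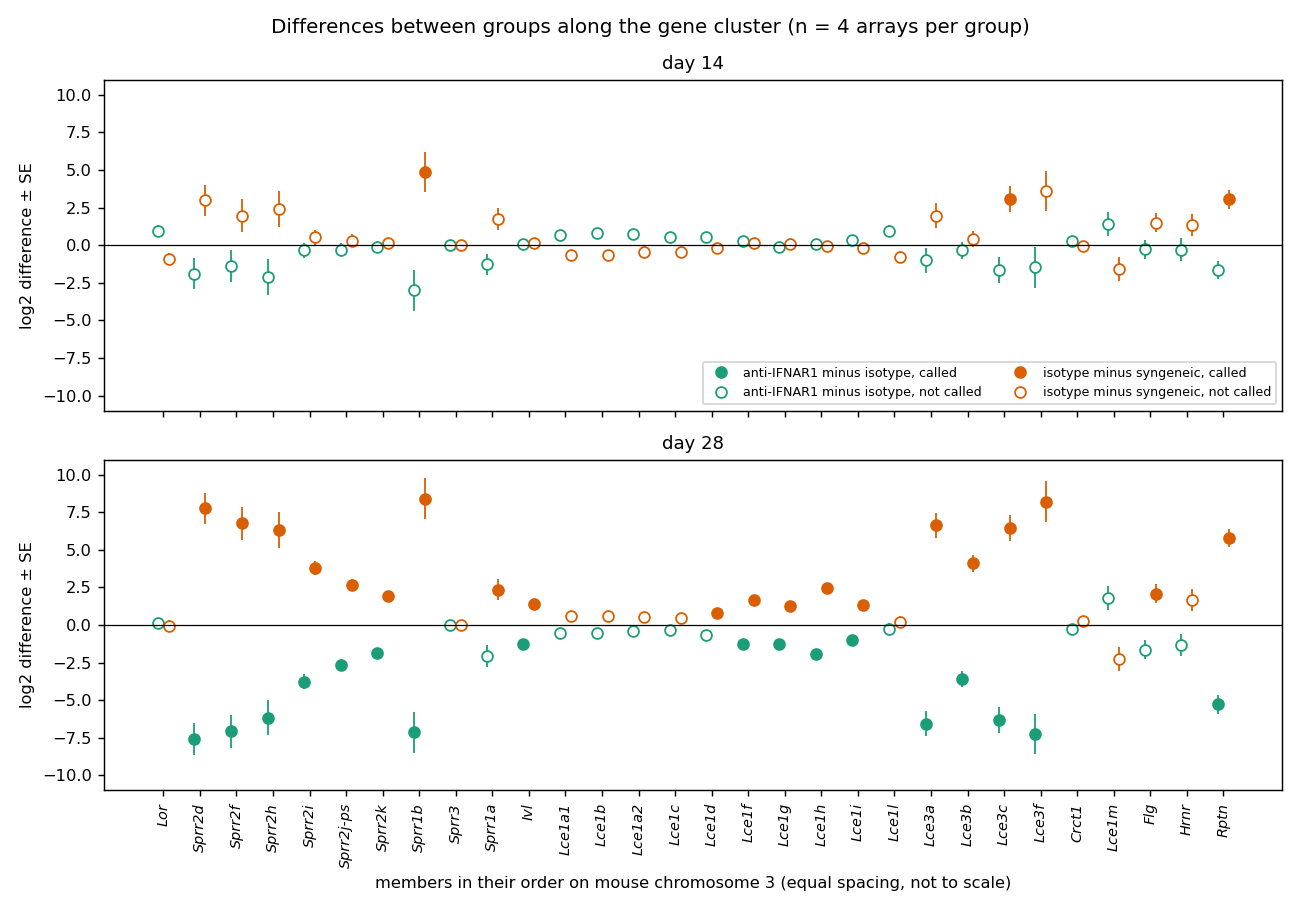
Log2 difference ± SE of each member on the y axis, for anti-IFNAR1 minus isotype and isotype minus syngeneic at day 14 and day 28, with members in their order on chromosome 3 (equal spacing), filled where called. At day 28 the Sprr2 run with Sprr1b and the Lce3 run form 2 separate stretches of large differences, with small ones at Lor and most Lce1 genes.

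Along chromosome 3 (RefSeq order, GRCm38.p6), Lor comes first, followed by the Sprr2 genes, Sprr1b, Sprr3, Sprr1a, Ivl, most Lce1 genes, the Lce3 genes, Crct1, Lce1m, Flg, Hrnr and Rptn. The large day 28 differences were not one continuous block. Sprr3, near the lowest value on the array, lies between Sprr1b and Sprr1a. The run from Lce1a1 to Lce1c, with no called member, lies between Ivl and Lce1d. Crct1, at 0.23, and Lce1m, at -2.24, follow directly after Lce3f, at 8.21 in isotype minus syngeneic. Because probe sets differ in brightness, such neighbours can be compared in their differences but not in their levels.

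Cross-linking and barrier genes and other epidermal genes were read next, each group from a list. Values in parentheses here are log2 differences. At day 28, 6.66% of all genes were higher and 9.69% lower in isotype than in syngeneic skin. With the antibody, 4.89% of all genes were lower and 8.42% higher than in isotype skin. Of 15 measured cross-linking and barrier genes, 8 were higher in isotype than in syngeneic skin at day 28 and 0 lower. They included Tgm3 (3.50) and Tgm1 (1.97), the transglutaminases that cross-link envelope proteins, Casp14 (3.04), which takes part in filaggrin processing, and Klk7 (2.05), a protease of the outer layers. With the antibody 9 of the 15 were lower than in isotype skin, among them Tgm3 (-3.29) and Casp14 (-2.91). Of 13 desmosome and cell-border genes 4 were higher, led by Cnfn (3.04), which encodes the envelope protein cornifelin. That list is not limited to desmosome or adhesion genes, and it also holds Csta1, Sbsn, Krtdap and Dmkn. All 4 wound keratins were higher, with Krt6b at 8.56, Krt16 at 7.84, Krt6a at 3.58 and Krt17 at 1.18. Of 8 keratins of resting epidermis, 1 was higher (Krt14, 1.09) and 1 lower (Krt15, -2.19), counts near the shares of all genes. Of 11 S100 genes 3 were higher and 1 lower, led by S100a9 (6.63) and S100a8 (5.16), calcium-binding proteins of neutrophils and activated keratinocytes. With the antibody, 3 of 4 wound keratins, 4 of 13 desmosome and cell-border genes and 3 of 11 S100 genes were lower than in isotype skin. The 1 of 11 S100 genes that was higher is near the share of all genes.

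Regulators of epidermal differentiation, AP-1 genes and cytokines were measured too. At day 28, 6.66% of all genes were higher in isotype than in syngeneic skin, and 4.89% were lower in anti-IFNAR1 than in isotype skin. Of 18 regulators of late epidermal differentiation 6 were higher in isotype skin at day 28 and 0 lower. They were led by Elf3 (3.34), Ehf (2.44), Grhl3 (1.64) and Ovol1 (1.49). Of 8 AP-1 genes, whose proteins bind AP-1 sites, 3 were higher, namely Fosl1 (2.50), Batf (2.07) and Junb (1.82). Of 11 cytokines and growth factors 7 were higher, among them Il1b (4.98), Hbegf (3.29) and Ifng (2.92). Of 14 genes induced by type I interferon 11 were higher in isotype than in syngeneic skin and 12 were lower in anti-IFNAR1 than in isotype skin. Over the same lists, anti-IFNAR1 against isotype skin gave 5 lower regulators, 4 lower AP-1 genes and 7 lower cytokines, and 0 higher ones in each. At day 14, 5.29% of all genes were higher and 8.3% lower in isotype than in syngeneic skin. Higher were 4 of 4 wound keratins, 3 of 11 S100 genes, 3 of 11 cytokines, 2 of 8 AP-1 genes and 10 of 14 interferon-inducible genes. The counts of 2 of 18 regulators, 1 of 15 cross-linking and barrier genes (Klk7) and 1 of 8 resting keratins were near the 5.29%. The median difference over the resting keratins was -0.48. Lower were 2 of 13 desmosome and cell-border genes.

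**Figure D4:**
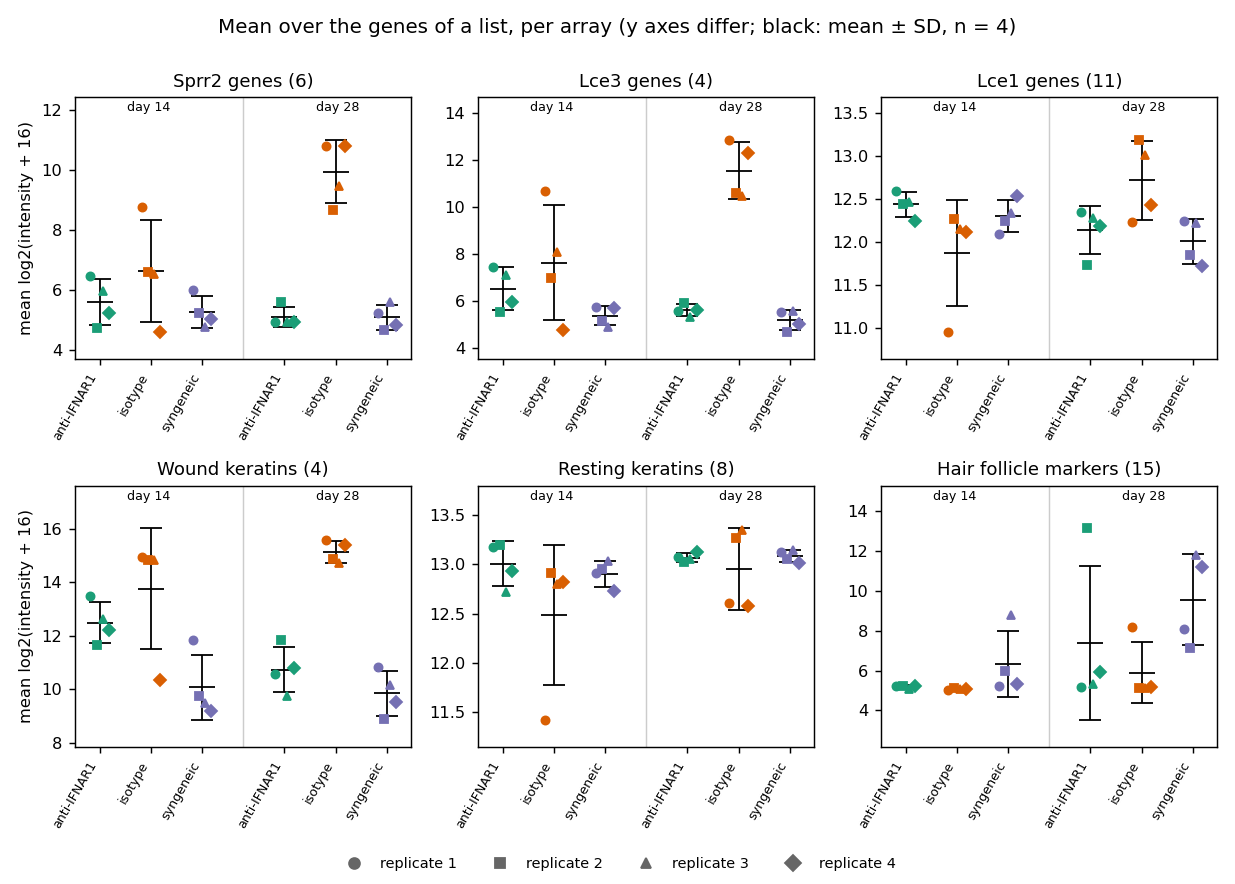
Mean log2(intensity + 16) over the genes of 6 lists on the y axis, per array, for the 3 groups at day 14 and day 28, with black marks for the mean ± SD of 4 arrays. Isotype replicate 4 at day 14 is the lowest isotype array for wound keratins, at 10.37, and the hair follicle list is nearly level in anti-IFNAR1 and isotype skin at day 14 and varies between arrays of the other 4 groups.

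Markers of other cell types were counted in the same groups. At day 14, all 8 T cell genes and 2 of 8 neutrophil genes were higher in isotype than in syngeneic skin (5.29% of all genes were). Lower were 1 of 7 adipocyte and 1 of 8 muscle genes, near the 8.3% of all genes that were lower. No hair follicle genes were called. The shares of all genes at day 28 were 6.66% higher and 9.69% lower. At day 28, all 8 T cell genes were higher in isotype than in syngeneic skin, and their mean ran from 5.42 to 5.71 in anti-IFNAR1 skin, from 6.99 to 7.24 in isotype skin and from 4.67 to 5.01 in syngeneic skin. Of 8 neutrophil genes 6 were higher, with means from 4.69 to 5.35 in anti-IFNAR1 skin, from 5.52 to 7.13 in isotype skin and from 4.72 to 5.08 in syngeneic skin. All 7 adipocyte genes were lower, with means from 11.07 to 12.06 in anti-IFNAR1 skin, from 9.04 to 10.14 in isotype skin and from 11.03 to 11.92 in syngeneic skin. Of 8 muscle genes 4 were lower, with means from 14.50 to 15.12 in anti-IFNAR1 skin, from 13.42 to 14.65 in isotype skin and from 14.50 to 15.10 in syngeneic skin. Of 15 hair follicle genes 3 were lower, with means from 5.15 to 13.14 in anti-IFNAR1 skin, from 5.11 to 8.19 in isotype skin and from 7.16 to 11.82 in syngeneic skin. Between anti-IFNAR1 and isotype skin, all 8 T cell genes and 6 neutrophil genes were lower (4.89% of all genes were). In the same comparison 7 adipocyte and 4 muscle genes were higher (8.42% of all genes were), and 0 hair follicle genes were called. Between anti-IFNAR1 and syngeneic skin 1 T cell gene was higher and 0 genes of the other 4 lists were called (0.033% of all genes were). The part of T cells, neutrophils, fat and muscle in the results was not tested. With the hair follicle mean as a covariate in limma, 19 members were higher in isotype than in syngeneic skin at day 28. In the same fit 19 were lower in anti-IFNAR1 than in isotype skin. Lce1m was then lower in isotype than in syngeneic skin (-2.86, adjusted p = 0.038). The share of all genes called in this fit is not given here.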

How the data were processed

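The authors deposited 1 intensity per probe set and array, on a linear scale. Their summarisation and normalization steps are not given in the sources used here, so how comparable the 24 arrays are is not known from them. Extraction and labelling followed a column kit for fibrous tissue and the standard Affymetrix protocol, per the labels' protocols. The deposited intensities were taken to log2(intensity + 16) with no other normalization.

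The annotation gave 1 gene symbol for 34945 of 45101 probe sets, several for 932 and none for 9160, and 64 were controls. For 34741 probe sets the RefSeq symbol was taken through the gene identifier, whether or not it differed, and 204 kept the symbol of the annotation. The probe set with the highest mean stood for a gene, which gave 18193 genes. Every column of values was matched to a sample by its label.

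In limma 3.58.1 (R 4.3.3), lmFit and eBayes were run on all 24 arrays with a mean per group (18 residual degrees of freedom, prior 0.71), two-sided, with Benjamini-Hochberg adjustment over all genes at 0.05. The steps were tested on simulated data. The number of arrays limits the precision. Members and lists were chosen with earlier results of these data known. Values on every array were printed for Sprr1b, Sprr2d, Sprr2k, the 2 brightest members of each class and the members with the largest antibody differences (at most 4 each day), and for Rptn and Lce1m, chosen after their values were seen. From other lists at most the 4 called genes of largest change were named. Other settings tried are given in the closing section.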

Additional observations from a re-analysis of the deposited data

Results flagged for a closer look

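Single arrays stood apart from the other 3 of their group in 17 of 180 combinations of member and group (a gap above Dixon's critical value). Chance alone gives such a ratio in about 1 of 20 groups. Isotype replicate 1 at day 14 accounted for 7 of them. It was the lowest array for Lor (12.40), Lce1c (13.55), Lce1a1 (13.04), Lce1a2 (12.37) and Lce1b (11.36), and the highest for Sprr2i (6.61) and Sprr2j-ps (5.82). Anti-IFNAR1 replicate 2 at day 28, the array with the high hair follicle mean, was the highest of its group for Sprr2h (8.58) and the lowest for Lce1b (12.63), Lce1i (12.20) and Lce1l (8.36).

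Anti-IFNAR1 replicate 4 at day 28 was the highest for Lce1h (10.48), and anti-IFNAR1 replicate 3 at day 14 was the highest for Lce1g (4.64). Syngeneic replicate 1 at day 14 was the highest for Sprr2f (7.38) and Lce3a (4.65), and syngeneic replicate 4 at day 14 was the highest for Lce1a1 (15.05). Syngeneic replicate 4 at day 28 was the lowest for Sprr2i (4.35), by less than 0.1 below the next array. Several of these differences lie near the lowest value on the array.

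In limma, 2 members passed the test for a change of the group differences between days. An unadjusted p under 0.05 was reached by 21 members for isotype minus syngeneic and by 23 for anti-IFNAR1 minus isotype. For isotype minus syngeneic the difference at day 28 exceeded that at day 14 by 1.81 (adjusted p = 6.2e-08) for Sprr2k and by 1.16 (adjusted p = 0.0014) for Lce1g. For anti-IFNAR1 minus isotype the interactions were -1.74 (adjusted p = 1.2e-07) for Sprr2k and -1.14 (adjusted p = 0.0021) for Lce1g. Both share the isotype arrays.

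The 3 probe sets shared by Sprr2a genes, which entered no test, had day 28 means of 9.56, 14.86 and 14.71 in isotype skin, against 5.52, 8.31 and 7.06 in syngeneic skin, differences of 4.05, 6.54 and 7.65. Their means in anti-IFNAR1 skin were 5.78, 10.50 and 9.54, against 5.52, 8.31 and 7.06 in syngeneic skin.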

How the results depend on the processing

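No difference of a member that was called changed its sign under any setting tried. Counts of members under other settings are given without the share of all genes called in the same setting. They show how the calls of members moved, and not whether members moved more than other genes. At day 28, between 17 and 22 members were called in isotype against syngeneic skin (20 as reported) and between 16 and 20 in anti-IFNAR1 against isotype skin (17 as reported). Of the 20, 17 were called under every setting, the exceptions being Flg, Lce1d and Sprr1a. Of the 17, 16 were, the exception being Sprr2j-ps. Of the 3 called at day 14, 0 were called under every setting, of the 13 called between days in isotype skin 1 was (Sprr2k), and of the 2 called in each interaction 1 was (Sprr2k). The causes of these shifts were not tested.

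With only the arrays compared in the fit, 0 members were called in isotype against syngeneic skin at day 14, 1 in isotype skin between days and 1 in each interaction. Without the arrays of a log2 Gapdh ratio above 4, a setting chosen after seeing the data, the counts were 1 at day 14, 6 between days and 1 in each interaction. With the Gapdh ratio as a covariate 5 members were called at day 14. The interaction of isotype minus syngeneic with day gave 4 calls after quantile normalization, 4 after centring of array medians and 7 without the dimmest genes. The interaction of anti-IFNAR1 minus isotype with day gave 11 after centring, 4 with an offset of 1, 5 without the dimmest genes and 5 with the hair follicle mean as a covariate. Centring shifted the median of all genes by -0.28 in that interaction, by 0.15 in isotype minus syngeneic and by -0.18 in anti-IFNAR1 minus isotype at day 28.

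Leaving out each array in turn gave 1 to 9 calls in isotype against syngeneic skin and 0 to 5 in anti-IFNAR1 against isotype skin at day 14, the highest of each without isotype replicate 4. It gave 2 to 7 calls in the interaction of isotype minus syngeneic with day and 2 to 8 in that of anti-IFNAR1 minus isotype, the highest of each without isotype replicate 1 of day 14. Without isotype replicate 2 or 3 of day 28 each interaction gave 5, and without anti-IFNAR1 replicate 2 of day 28 the second gave 6.

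Samples were treated as unpaired. The correlations of deviations between same-numbered arrays ran from -0.616 to 0.571, and 9 of 24 were over 0.1. They were not set against those of differently numbered arrays, so they cannot decide whether replicate numbers pair the samples. With the replicate number as a block, 19 members were called at day 28 in isotype against syngeneic skin and 17 in anti-IFNAR1 against isotype skin, 3 and 0 at day 14, 12 between days in isotype skin, and 2 and 3 in the interactions.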
